A study of Mus musculus with 15 samples.

Results

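The epicardium, the mesothelial layer that covers the heart, was examined in Drop-seq data from whole hearts of C57BL6/N mouse embryos at E14.5. Drop-seq captures single cells with barcoded beads and counts transcripts as unique molecular identifiers (UMIs) per cell barcode. The 15 libraries were 7 from wild-type (WT) hearts and 8 from hearts of homozygous Adamts19 knockouts (KO), of which KO replicates 1 to 4 carry the tm4a allele and KO replicates 5 to 8 the tm4b allele. The labels name no tissue restriction of the knockout, and the table also holds a LacZ reporter row. WT libraries came from litters 1 to 4 and KO libraries from litters 5 to 7 (tm4b from litter 7 alone), so genotype, allele and litter cannot be told apart. Sequencing flow cell ran almost along genotype too: WT replicate 5 shared its flow cell with the KO libraries, and the other 6 WT libraries were on other flow cells. The number of embryos behind a library is not given in the labels, and p-values below measure the spread between libraries.

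A barcode was counted as epicardial when it had at least 300 genes, under 2% of its UMIs from 7 cardiomyocyte genes (Actc1, Tnnt2, Tnni1, Tnnc1, Myl4, Myl7, Ttn), fewer than 2 UMIs of 4 endothelial genes (Pecam1, Cdh5, Emcn, Egfl7), at least 2 UMIs of Upk3b, Upk1b, Wt1, Aldh1a2 and Krt19 together, and more of these than of 6 fibroblast genes (Tcf21, Lsp1, Spon2, Slc38a5, Col14a1, Ch25h). Members were thus chosen by measured UMI counts, so the levels of these genes, and every difference between the epicardial barcodes and other barcodes, are given as descriptions with no test. Of 55152 barcodes, 50899 had at least 300 genes, 2424 of those reached 2 epicardial UMIs, 1934 also met the cardiomyocyte limit, 1826 also the endothelial limit, and 1410 met the whole rule. These were 487 of 22474 kept WT barcodes and 923 of 28425 kept KO barcodes. The mirrored rule gave 6407 fibroblast barcodes. Barcodes with at least 4 endothelial UMIs and under 2% cardiomyocyte UMIs (4877, called endothelial here) and barcodes with at least 4% cardiomyocyte UMIs (19724) served as reference classes. Median depth was 2096.5 UMIs in epicardial, 2371 in fibroblast, 2595 in endothelial and 1832 in cardiomyocyte barcodes, and the epicardial sums of a library ranged from 61194 UMIs (WT replicate 5, 25 barcodes) to 455020 (KO replicate 6, 179 barcodes). Of the members, 4 had a barcode sequence that also occurred in another library, and 0 sequences were gated in more than 1 library.

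The epicardium arises from proepicardial cells and forms a polarised sheet with keratins, uroplakins and a basement membrane. Some of its cells undergo an epithelial to mesenchymal transition under the transcription factors Wt1, Tcf21 and Tbx18 and give rise to fibroblasts and mural cells of the coronary vessels. The sheet also makes retinoic acid through Aldh1a2 and secretes growth factors that act on the underlying muscle.

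Some members carried transcripts of other epithelia. In 61 of the 1410 barcodes there was a UMI of Epcam or Cdh1, an adhesion molecule and the cadherin of most simple epithelia, 27 of them in KO replicate 6 and 24 in KO replicate 8, both tm4b. The other 10 were in 6 libraries: WT replicate 4 held 4, WT replicate 2 held 2, and WT replicates 1, 3 and 6 and KO replicate 7 held 1 each. These 61 barcodes had 132 CPM of Msln (CPM is the gene's UMIs scaled to a common library total) against 564 in the other 1349, 552 CPM of Col1a1 against 3240, 63.8 CPM of Wt1 against 268, and 1728 CPM of Krt19 against 650. Their markers go against the label epicardial in part: Msln, Wt1 and Col1a1 were lower and Krt19 higher than in the other members. Results they bear on are given with and without them, a choice made after seeing the data.

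For the leading genes, the stretch upstream of the transcription start is shown where it held a match to the hexamer bound by TEAD factors, the DNA-binding partners of the Yap and Taz coactivators. The RefSeq promoter table (build GRCm38.p6, 250 bases before to 50 bases after a start) held windows for 20 of the 30 genes considered (the 5 rule genes and the 25 with the highest ratio to fibroblasts). GGAATG or its reverse complement CATTCC occurred in 4 of 23 windows (17.4%), against 14.7% of all 32851 windows. The GATA hexamer AGATAA or TTATCT occurred in 1 of 23 (4.35%) against 11.2%. The 250 upstream bases of 3 windows with a TEAD match follow, 5′ to 3′ on the gene's strand, with the match in capitals: Upk3b at chr5:136038246-136038495 (plus strand), Lrrn4 at chr2:132880863-132881112 (minus strand) and Gpm6a at chr8:54779184-54779433 (plus strand, the more distal of its starts in the table).
Upk3b: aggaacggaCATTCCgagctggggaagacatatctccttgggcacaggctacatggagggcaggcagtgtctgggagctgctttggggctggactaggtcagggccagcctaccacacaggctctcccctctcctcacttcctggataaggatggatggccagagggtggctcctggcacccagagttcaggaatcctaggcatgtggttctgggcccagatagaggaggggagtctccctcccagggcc
Lrrn4: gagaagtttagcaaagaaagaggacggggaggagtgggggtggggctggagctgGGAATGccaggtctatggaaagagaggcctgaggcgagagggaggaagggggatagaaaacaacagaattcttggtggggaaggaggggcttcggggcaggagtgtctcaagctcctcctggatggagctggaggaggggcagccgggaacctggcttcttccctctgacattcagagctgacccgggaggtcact
Gpm6a: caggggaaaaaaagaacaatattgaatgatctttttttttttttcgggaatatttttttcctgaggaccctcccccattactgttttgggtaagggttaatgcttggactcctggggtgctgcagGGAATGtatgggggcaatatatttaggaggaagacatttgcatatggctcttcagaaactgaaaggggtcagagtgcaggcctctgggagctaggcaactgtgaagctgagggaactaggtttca
The match in the Upk3b window is the reverse form, and those of Lrrn4 and Gpm6a are the forward form. The fourth window with the hexamer belonged to Dpp4. A match describes these letters and shows no binding.

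The rule genes set the scale of the class. Upk3b, an uroplakin of the mesothelial surface, was at 2267 ± 371 CPM (SD, n = 15 libraries) in epicardial sums against 16.3 ± 8.93 CPM in fibroblast sums and was seen in 88.2% of members. Krt19 was at 684 ± 165 CPM, Aldh1a2 at 520 ± 107, Upk1b at 408 ± 99.2 and Wt1 at 260 ± 58.1. Members with a UMI of 1, 2, 3, 4 or all 5 of these genes numbered 179, 351, 343, 336 and 201. Among the 179 with 1 rule gene, 63 had Krt19 alone, 21 of them in KO replicate 6 and 21 in KO replicate 8.

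Tbx18, the marker of the label that the rule did not use, was at 232 ± 92.1 CPM in epicardial, 82.2 ± 35.2 in fibroblast and 3.59 in endothelial sums, and it was higher than in fibroblasts in 15 of 15 libraries. It was seen in 35.5% of members, and in 18.9% once barcodes with at least 1000 UMIs were thinned to 1000 each and the rest dropped. Of the further mesothelial genes fixed as markers and absent from the rule, Msln (mesothelin) was at 580 ± 222 CPM, Lrrn4 at 353 ± 39.2, Gpm6a at 343 ± 73.9, Krt18 at 676 ± 251, Krt7 at 343 ± 61.5, Krt8 at 130 ± 59.3, Podxl at 88.7 ± 30.7 and Bnc1 at 68.2 ± 33.2. Fibroblast sums held between 1.75 and 12.8 CPM of each of these 8 genes. A Msln UMI was seen in 46.0% of members against 0.749% of fibroblast and 0.595% of endothelial barcodes, whose median depth was higher.

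**Figure D1:**
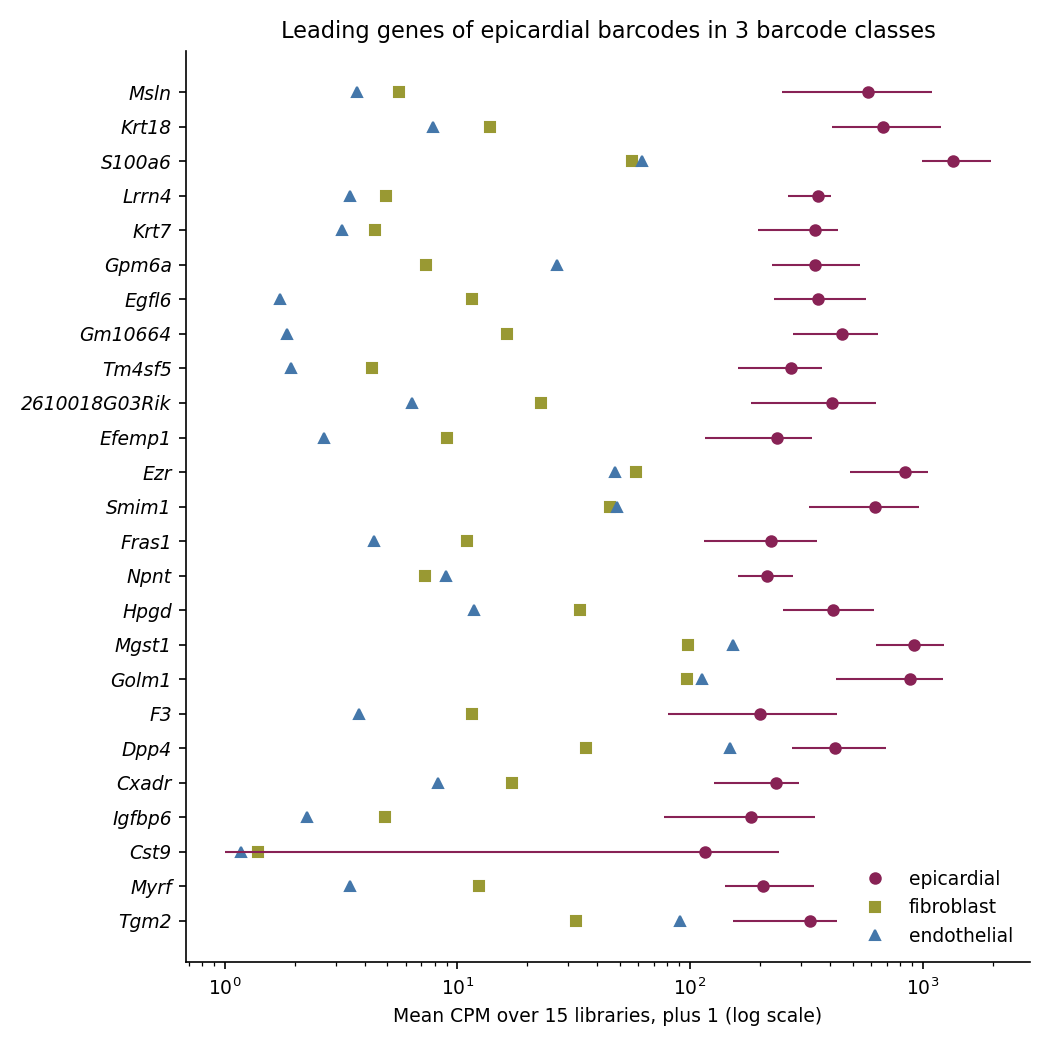
Mean CPM plus 1 (log axis) of the 25 genes outside the rule with the highest ratio of epicardial to fibroblast sums, in epicardial (circles, with a line from the lowest to the highest of 15 libraries), fibroblast (squares) and endothelial (triangles) sums. Every epicardial mean lies to the right of both other classes, and Cst9 reaches 0 CPM in 1 or more libraries.

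The 25 leading genes, ranked by the median over libraries of the log2 ratio with 20 CPM added, began with Msln (4.52), Krt18 (4.34), S100a6 (4.12), Lrrn4 (3.99), Krt7 (3.94), Gpm6a (3.78), Egfl6 (3.77), Gm10664 (3.71) and Tm4sf5 (3.64). They went on with Efemp1, a fibulin-type matrix protein (234 ± 71.1 CPM against 8.06), Ezr, the ezrin that ties the cell cortex to the membrane (836 ± 171 against 57.6), Cxadr, the coxsackie and adenovirus receptor of cell junctions (233 ± 51.6 against 16.2), and F3, tissue factor (199 ± 95.3 against 10.6). All 25 had a higher median than fibroblasts at a minimum of 3 rule-gene UMIs and after thinning, where 23 and 19 stayed among the leading 25. The pseudocount cannot change the sign of a ratio, but it changes the ranking. At the pseudocounts 5 and 100, 17 of the 25 stayed among the leading 25. Of the 4955 genes seen in at least 10% of epicardial or fibroblast barcodes, 432 (8.72%) were higher and 466 (9.4%) lower than in fibroblasts in 15 of 15 libraries; thinning left 201 and 206. Against all other kept barcodes, the leading gene outside the rule was S100a6 (log2 ratio 4.70), followed by Msln (4.61). Dlk1, a membrane-bound Delta-like protein, joined the leading 10 there (2310 ± 575 CPM, against 506 in fibroblast sums).

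Of the 12 measured genes of the list of mesothelial surface, keratin and junction proteins, 11 were higher in every library (median log2 ratio 3.33, against -0.05 over all genes). The epithelial cadherin was not among the abundant ones: Cdh3 was at 167 ± 41.5 CPM against 29.4 in fibroblasts, Cdh11 at 809 ± 197 against 295, and Cdh1 at 9.92 ± 23.8. The desmosomal plaque gene Dsp was at 80.8 ± 29.1 CPM against 30.4.

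Basement membrane genes split by member. Of 15 measured, 6 were higher and 5 lower in every library. Higher were Npnt (nephronectin, 214 ± 33.8 CPM against 6.24 in fibroblasts), Fras1 (223 ± 58.7 against 9.97), the laminin chain Lama5 (168 ± 49.5 against 15.7), Nid2 (383 ± 99.6 against 59.4), Col18a1 (246 ± 70.5 against 104) and Sparc (8392 ± 1629 against 4466). Lower were Lama4 (85.7 ± 27.1 against 232), Nid1 (150 ± 34.8 against 280), Lamb1 (244 ± 56.1 against 340), Col4a1 (235 ± 45.4 against 466) and Col4a2 (161 ± 48.9 against 237). The laminin and nidogen genes thus divided in the 2 classes, with Lama5 and Nid2 on the epicardial side and Lama4 and Nid1 on the fibroblast side.

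Among secreted signals, 7 of 17 measured genes were higher and 2 lower in every library, with a median log2 ratio of 0.47. The R-spondin Rspo1, which amplifies Wnt signalling, was at 108 ± 38.2 CPM against 2.23 in fibroblasts. The guidance factors Sema3d (288 ± 68.8 against 77.2), Sema3c (86.1 ± 37.4 against 12.8) and Slit3 (111 ± 45.0 against 36.0) were also on the epicardial side, as were Pdgfa (100 ± 23.1 against 25.4), Wnt5a (81.6 ± 22.9 against 40.8) and Igf2 (5050 ± 722 against 3611). Fgf9, seen in 7.23% of members and so outside the measured set, was at 34.2 ± 13.1 CPM against 2.07. Ptn (2194 ± 621 against 4920) and Slit2 (55.7 ± 31.2 against 137) were the 2 lower ones.

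Receptors showed the opposite balance, with 0 of 15 higher and 6 lower in every library. The PDGF receptors were among the lower ones, Pdgfra at 27.6 ± 16.3 CPM against 169 and Pdgfrb at 22.8 ± 9.63 against 113, while their ligand Pdgfa was higher. Fgfr1 (22.1 ± 16.7 against 102), Notch1 (10.1 ± 6.85 against 83.9), Notch3 (10.1 ± 11.7 against 53.8) and Robo2 (20.1 ± 13.5 against 53.4) completed the 6.

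Of 18 genes of the epithelial to mesenchymal transition and of mesenchyme, 10 were lower in every library and 1, Cdh11, was higher. The transition's transcription factors were lower: Snai2 was at 32.6 ± 12.3 CPM against 176, Snai1 at 19.8 ± 10.5 against 64.7, Zeb1 at 36.9 ± 18.6 against 95.1 and Zeb2 at 45.5 ± 26.8 against 204. Postn (periostin) was at 126 ± 107 CPM against 1738, the lowest ratio of any gene seen in at least 10% of members (log2 -3.85). The fibrillar collagens divided. Col1a1 was at 3354 ± 937 CPM against 2659, and Col1a2 at 4759 ± 825 against 3991, higher in 11 and 12 of 15 libraries, whereas Col3a1 was at 3918 ± 1009 against 6267 and lower in 15 of 15. The proteoglycan gene Dcn was at 3153 ± 665 CPM against 2385, higher in 14 of 15.

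The 5 measured retinoid genes outside the rule had a median log2 ratio of -0.55. Aldh1a1, a second retinaldehyde dehydrogenase, was at 48.8 ± 24.4 CPM against 2.95 and Rdh10, the retinol dehydrogenase before it in the path, at 68.5 ± 35.7 against 28.6. The receptors Rara (33.4 ± 10.9 against 61.0) and Rarb (30.5 ± 18.8 against 51.2) were lower in 14 of 15.

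Of 15 measured epicardial regulators, 3 were higher (Tbx18, Gata6 and Sox6) and 3 lower (Tbx20, Tead2 and Mecom) in every library. Bnc1, a zinc-finger gene, was higher in 14 of 15. Gata4 did not separate the classes, at 57.7 ± 18.0 CPM against 57.3 ± 13.2.

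Of 18 immediate early genes, which respond within minutes to stimulation and to cell isolation, 9 were higher and 2 lower in every library (median log2 ratio 0.55). Atf3 was at 1412 ± 444 CPM against 263, Ier3 at 1162 ± 391 against 209, Jun at 1514 ± 459 against 405 and Fos at 2077 ± 866 against 800. Mitosis genes went the other way, with 0 of 18 higher and 7 lower (median -0.82). Of 1410 members, 453 (32.1%) had at least 2 UMIs of the mitosis list, at a median of 3083 UMIs against 1825 in the remaining 957.

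Markers of other cell types were low in members, with exceptions. Pecam1, Cdh5 and Emcn were limited by the rule, as were the 7 cardiomyocyte genes. The macrophage genes C1qa, C1qb and C1qc were at 2.58, 3.16 and 2.33 CPM, although Csf1r was at 58.1 ± 17.6 CPM against 31.7 in fibroblasts. Sox10 and Afp were at 0, while the hepatocyte gene Apoa1 reached 8.95 CPM in WT replicate 6. Myl7, the atrial light chain, was at 1479 ± 447 CPM against 259 in fibroblast and 228 in endothelial sums, and Tnni1 at 509 ± 129 against 189 and 233, both higher than in fibroblasts in 15 of 15 libraries, whereas Myl4 (186 CPM against 192), Myh6 (83.7 against 84.2) and Nppa (169 against 172) were close to the fibroblast level and Actc1 (300 against 364) was lower in 14 of 15.

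Members near the rule's threshold were less epicardial by genes the rule did not use. Among the 174 barcodes with exactly 2 rule-gene UMIs, Msln was at 245 CPM, Tbx18 at 152 and Postn at 489. Just outside, the 385 barcodes with 1 such UMI that met the other limits had 52.0 CPM of Msln, 66.8 of Tbx18 and 1590 of Postn. From 13 UMIs up (411 barcodes), Msln was at 702 CPM, Tbx18 at 274 and Postn at 56.6. Depth differed along the same axis, from a median of 801.5 UMIs at 2 rule-gene UMIs to 4509 at 13 or more. A further 416 barcodes had at least 2 rule-gene UMIs but as many or more fibroblast UMIs. They had 482 CPM of Tcf21, 1215 of Postn, 165 of Upk3b, 144 of Tbx18 and 254 of Wt1. Tcf21, Upk3b and Wt1 are among the genes that chose these barcodes, so their levels are a description only. Of the members, 902 also had at least 1 fibroblast-rule UMI.

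**Figure D2:**
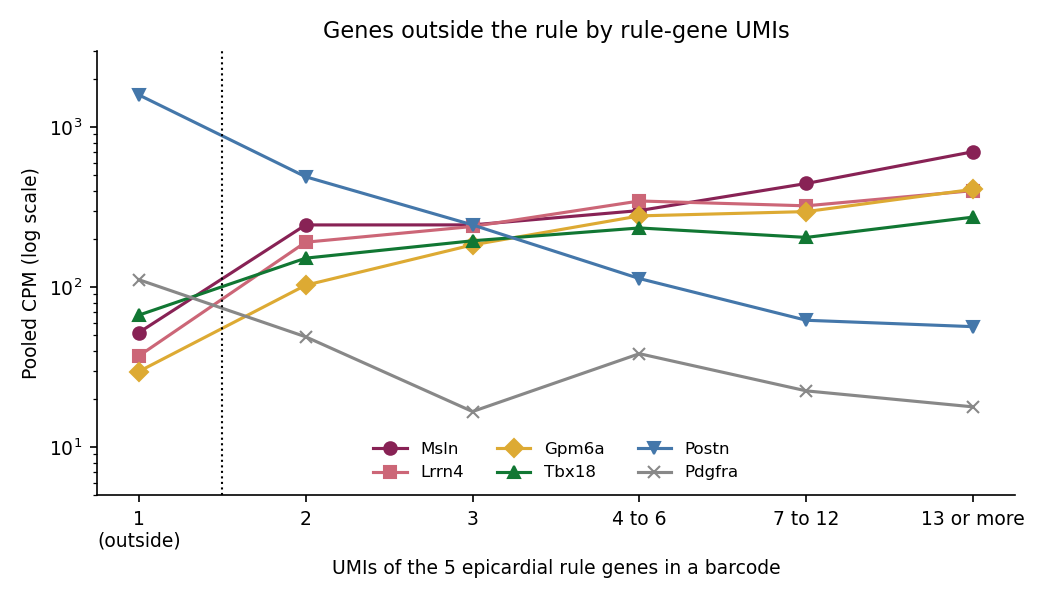
Pooled CPM (log axis) of 6 genes outside the epicardial rule, by the number of rule-gene UMIs in a barcode; the dotted line marks the rule's minimum of 2. Msln, Lrrn4, Gpm6a and Tbx18 lie lowest in barcodes with 1 UMI and Postn highest there, at 1590 CPM against 56.6 CPM at 13 or more UMIs.

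The targeted gene was too rare in the epicardium to check the labels there. Adamts19, a secreted metalloprotease, had 7 UMIs in all WT members and 1 in all KO members, and 3 UMIs would correspond to 2.11 CPM in WT and 1.27 CPM in KO. LacZ had 0 UMIs in WT and 12 in KO members, 7 of them in KO replicate 2. How Adamts19 loss bears on valve disease is the question of the series, and for the epicardium the comparison asks whether its share or its expression differed.

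Epicardial barcodes were a larger share of KO than of WT libraries on average, but the difference missed the threshold. In WT libraries the share of kept barcodes was lowest at 0.850% (replicate 5; exact 95% interval 0.551 to 1.25%), with a median of 2.54% and a highest value of 2.98% (replicate 6). In KO libraries it was lowest at 1.69% (replicate 1), with a median of 3.22% and a highest value of 4.58% (replicate 8; 3.88 to 5.37%). The groups overlapped between 1.69 and 2.98%, and 3 tm4b and 2 tm4a libraries lay above every WT library, KO replicate 3 (2.99%) only just. The means were 2.16 ± 0.853% (SD, n = 7) and 3.19 ± 0.974% (n = 8), a difference of 1.02 percentage points (two-sided exact permutation p = 0.0531; 0.106 adjusted over 4 such tests). With barcodes holding an Epcam or Cdh1 UMI left out it was 0.894 points (exact permutation p = 0.0491), and with barcodes thinned to 1000 UMIs 1.24 points (exact permutation p = 0.0159). Thinning dropped the barcodes under 1000 UMIs, 6603 of 22474 kept barcodes in WT and 10203 of 28425 in KO. Of the members, 89 of 487 in WT and 229 of 923 in KO lay under that depth. With litters as replicates the exact permutation p was 0.343, where the smallest possible is 0.0286. Intervals cover counting error only.

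The fibroblast share did not follow, at 12.2 ± 2.47% in WT and 12.6 ± 2.53% in KO libraries (exact permutation p = 0.762). The log2 ratio of epicardial to fibroblast barcodes was -2.59 ± 0.705 in WT and -2.02 ± 0.282 in KO libraries, a difference of 0.57 (exact permutation p = 0.0525; 0.106 adjusted over 4 tests). Members also differed in depth: their median UMI count averaged 2365 in WT and 1956 in KO libraries (exact permutation p = 0.0138). The part of depth in the share was tested only by thinning, which also dropped the shallower barcodes. Between the alleles the share was 2.56 ± 0.802% in tm4a and 3.81 ± 0.735% in tm4b libraries (n = 4 each; exact permutation p = 0.0857, smallest possible 0.0286), and 3.48 ± 0.403% in tm4b once barcodes with an Epcam or Cdh1 UMI were left out (p = 0.114 by the exact permutation test). The share of members with at least 2 mitosis UMIs averaged 36.6% in WT (17.4 to 59.1%) and 27.4 ± 3.55% in KO libraries (exact permutation p = 0.125). Without WT replicate 7 that difference was -12.4 points (exact permutation p = 0.0160). The other fits without 1 library gave exact permutation p from 0.0619 (without WT replicate 5) to 0.270 (without WT replicate 3). After thinning the mitotic difference was -2.88 points (exact permutation p = 0.552). With litters as replicates it was -7.21 points (exact permutation p = 0.571).

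**Figure D3:**
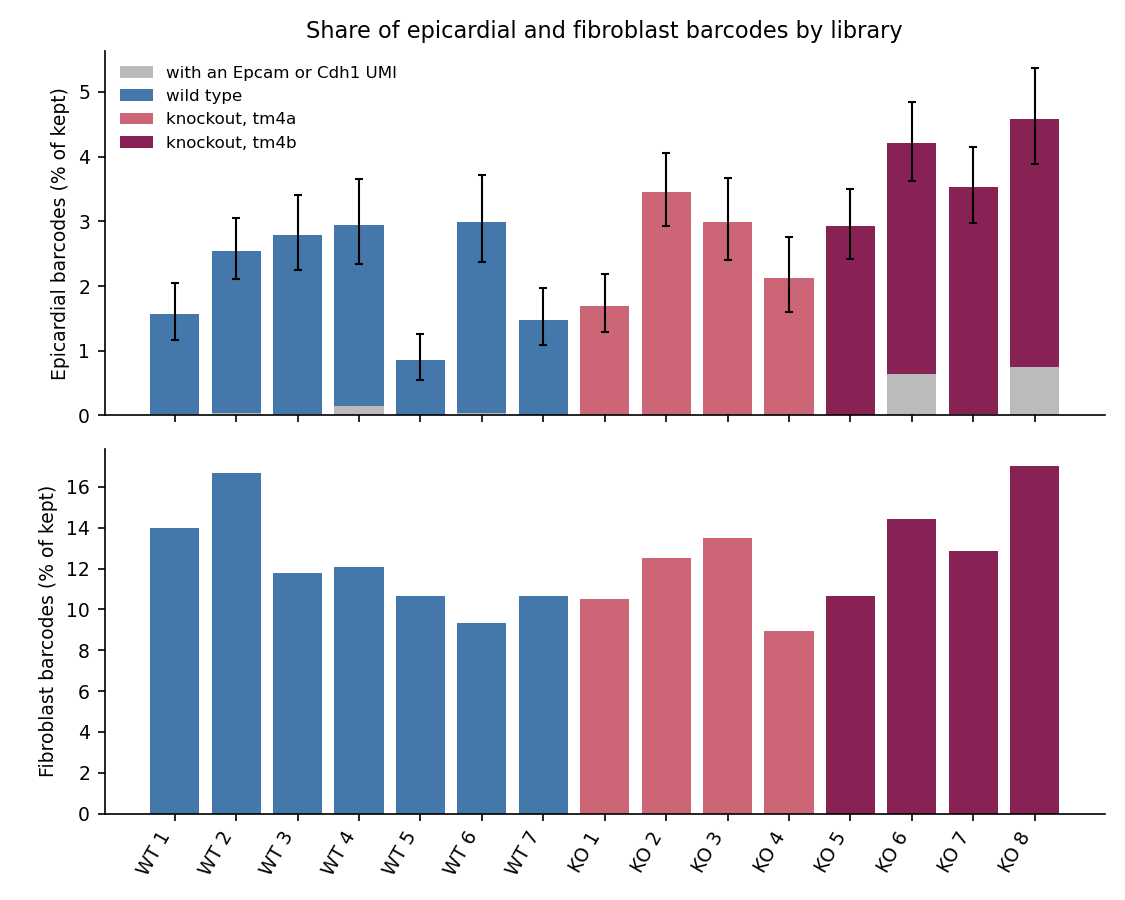
Epicardial (top, with exact 95% intervals) and fibroblast (bottom) barcodes as a percent of kept barcodes in each library, by genotype and allele; the grey base of a top bar is the share with an Epcam or Cdh1 UMI. The tallest epicardial bars, 4.58 and 4.20%, are KO replicates 8 and 6, which also hold most of the grey share.

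Between KO and WT members, 28 of 4395 genes tested (0.637%) passed edgeR's quasi-likelihood test at an adjusted p under 0.05, 11 higher and 17 lower in KO. At an unadjusted p under 0.05 there were 542. All 28 kept their call without barcodes holding an Epcam or Cdh1 UMI, where 33 genes were called. Of the 28, Actc1, Tnnt2, Tnnc1 and Ttn are genes the rule limits, and their values are given as a description only. Genes whose WT and KO libraries did not overlap numbered 13 of 4395 (0.296%) over all genes and 7 among the 28.

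The leading genes other than Krt18 were not among the 28. The 5 epicardial rule genes chose the members, so their values are a description only. Upk3b, a rule gene given as a description, was at 1708, 2362 and 2762 CPM in WT (lowest, median, highest library) and at 1617, 2332 and 2890 in KO. Tbx18 was at 117, 215 and 384 CPM in WT and at 135, 201 and 429 in KO. Lrrn4 was at 261, 357 and 387 CPM in WT and at 292, 369 and 403 in KO. Both groups spanned nearly the same range for each. The log2 fold changes were 0.00 for Upk3b, -0.06 for Upk1b, -0.11 for Wt1, 0.11 for Aldh1a2, 0.32 for Krt19, 0.05 for Tbx18 and -0.02 for Msln, with standard errors of 0.14 to 0.24. The first 5 of these are rule genes, bounded by the rule itself and given with no test. Of the 25 leading genes, 1 was called (Krt18).

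Krt18, a keratin of simple epithelia, rose in KO members. It was at 406, 463 and 577 CPM in WT and at 542, 822 and 1203 in KO (lowest, median, highest). KO replicate 5 was the only KO library within the WT range. The log2 fold change was 0.77 ± 0.17 (SE, edgeR adjusted p = 0.0216). Without barcodes holding an Epcam or Cdh1 UMI it was 0.72 (edgeR adjusted p = 0.049). In fibroblast barcodes, with 12.7 CPM pooled, it was 0.94 ± 0.25 (edgeR adjusted p = 0.0955). The difference between the classes was -0.06. Krt18 passed in 12 of the 15 fits that left out 1 library. Its partner Krt8 was at 90.4 ± 41.3 CPM in WT and 166 ± 50.5 in KO (edgeR adjusted p = 0.129). Krt18 was the 1 called gene of 12 tested in the mesothelial list, and the list's median log2 change was 0.02.

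Of the other higher genes, Hspb8 was the 1 called gene of 11 tested in the heat shock list and Sox9 the 1 of 13 in the epithelial to mesenchymal transition list. Cdkn1c, which encodes the cell-cycle inhibitor and is imprinted, was at 1128, 1335 and 2275 CPM in WT and at 2057, 2854 and 3256 in KO. Only WT replicate 3 reached the KO range. Its log2 fold change was 0.89 ± 0.15 (edgeR adjusted p = 0.00285). Pfkfb3, a kinase that raises glycolytic flux, was at 16.3, 27.7 and 43.1 CPM in WT and at 53.9, 72.2 and 115 in KO. The groups did not overlap, and the log2 fold change was 1.46 ± 0.25 (edgeR adjusted p = 0.00282). Tnfrsf12a, the receptor of the cytokine Tweak, was at 166, 245 and 313 CPM in WT and at 338, 479 and 554 in KO, again without overlap (log2 0.92 ± 0.17, edgeR adjusted p = 0.00566). Hbegf, a ligand of the EGF receptor family, was at 120 ± 52.3 CPM in WT and 285 ± 94.7 in KO (log2 1.25). Sox9, a transcription factor of cartilage and valve mesenchyme, was at 38.5 ± 14.4 CPM in WT and 105 ± 44.3 in KO (log2 1.38). The monocyte chemokine Ccl2 was at 444 ± 149 and 877 ± 270 CPM (log2 0.98). Elovl5, Hspb8, Ifrd1 and Pdlim1 had log2 fold changes of 0.92, 0.86, 0.85 and 0.78.

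Of the 17 lower genes, 10 are in the lists of cardiomyocyte genes: Nppa, Myl3, Tnni3, Tnnc1, Myh7, Myl2, Ttn, Myh6, Tnnt2 and Actc1. Nppa, the atrial natriuretic peptide gene, was at 137, 233 and 346 CPM in WT and at 75.9, 89.6 and 196 in KO. KO replicate 1 was the only KO library within the WT range. Its log2 fold change was -1.35 ± 0.20 (edgeR adjusted p = 0.00107). Myl3 was at 192, 287 and 490 CPM in WT and at 90.4, 130 and 185 in KO, without overlap (log2 -1.28 ± 0.20, edgeR adjusted p = 0.00107). Of 8 tested genes of the cardiomyocyte list outside the rule 6 fell (median -1.23, against -0.02 over all genes). The 7 cardiomyocyte genes the rule limits had a median of -0.83, which is a description and no test. Transcripts of these 7 genes made up 0.341 to 0.607% of member UMIs in WT and 0.217 to 0.424% in KO libraries, and those of the other list 0.240 to 0.376% and 0.227 to 0.301%. Fibroblast and endothelial barcodes moved alike: the 7 genes averaged 0.265% of fibroblast UMIs in WT and 0.158% in KO, and 0.227% and 0.147% of endothelial UMIs. Haemoglobin transcripts made up 0.0471 to 0.367% of member UMIs in 6 WT libraries, 1.79% in WT replicate 4, and 0.0458 to 0.333% in KO libraries. The part of RNA from other cells in the lower genes was not tested.

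The 7 lower genes outside both cardiomyocyte lists were Gm10076, Sh3bgr, Mybpc3, Tbx20, Gm1673, Cox5a and Uqcrq. Mybpc3, a myosin-binding protein, and Sh3bgr are also known from heart muscle. Tbx20, a T-box factor of heart development, was at 68.5, 89.6 and 107 CPM in WT and at 20.1, 45.8 and 56.6 in KO. The groups did not overlap, and the log2 fold change was -1.17 ± 0.24 (edgeR adjusted p = 0.0104) in members and -0.11 ± 0.15 in fibroblasts, a difference between the classes of -1.01 (edgeR adjusted p = 0.13). Cox5a and Uqcrq, subunits of the respiratory chain, had log2 fold changes of -0.84 and -0.62. Of 71 respiratory chain genes, 63 had negative estimates (median -0.24), 2 of them called, against 2323 of 4395 over all genes. Fibroblast barcodes moved alike, with 65 of 78 negative (median -0.16). In the difference between the classes 40 of 78 were negative (median -0.003) and 0 were called.

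No gene was called in the secreted signals (17 tested), basement membrane (15), receptor (5), retinoid (3), replication (16), mitosis (15), immediate early (17), ribosomal protein (72) or haemoglobin (5) lists by edgeR. Their medians lay between -0.44 (mitosis) and 0.39 (retinoid) apart from haemoglobin (-2.08). In the mitosis list 15 of 15 estimates were negative, against 2323 of 4395 over all genes. Cenpf led them (log2 -1.03, edgeR adjusted p = 0.062). Fibroblast barcodes had 8 of 20 mitosis estimates negative (median 0.03). In the difference between the classes 18 of 20 were negative (median -0.38), against 4374 of 9827 over all genes, and 0 were called. Postn was at 179 ± 135 CPM in WT and 80.3 ± 46.6 in KO members (log2 -1.10, edgeR adjusted p = 0.162).

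These calls rest on a comparison in which flow cell and genotype overlap. With flow cell as a term, where WT replicate 5 is the only WT library beside the KO libraries, 8 genes were called and 0 of them were among the 28, although 26 of the 28 kept their sign. With litters summed, 2 were called, 1 of them (Gm10076) among the 28, and all 28 kept their sign. Left out in turn, WT replicate 4 lowered the count to 18 and WT replicate 3 raised it to 48; 16 of the 28 passed in all 15 of these fits. Without WT replicates 1 to 4, 22 genes were called, 4 of them among the 28.

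**Figure D4:**
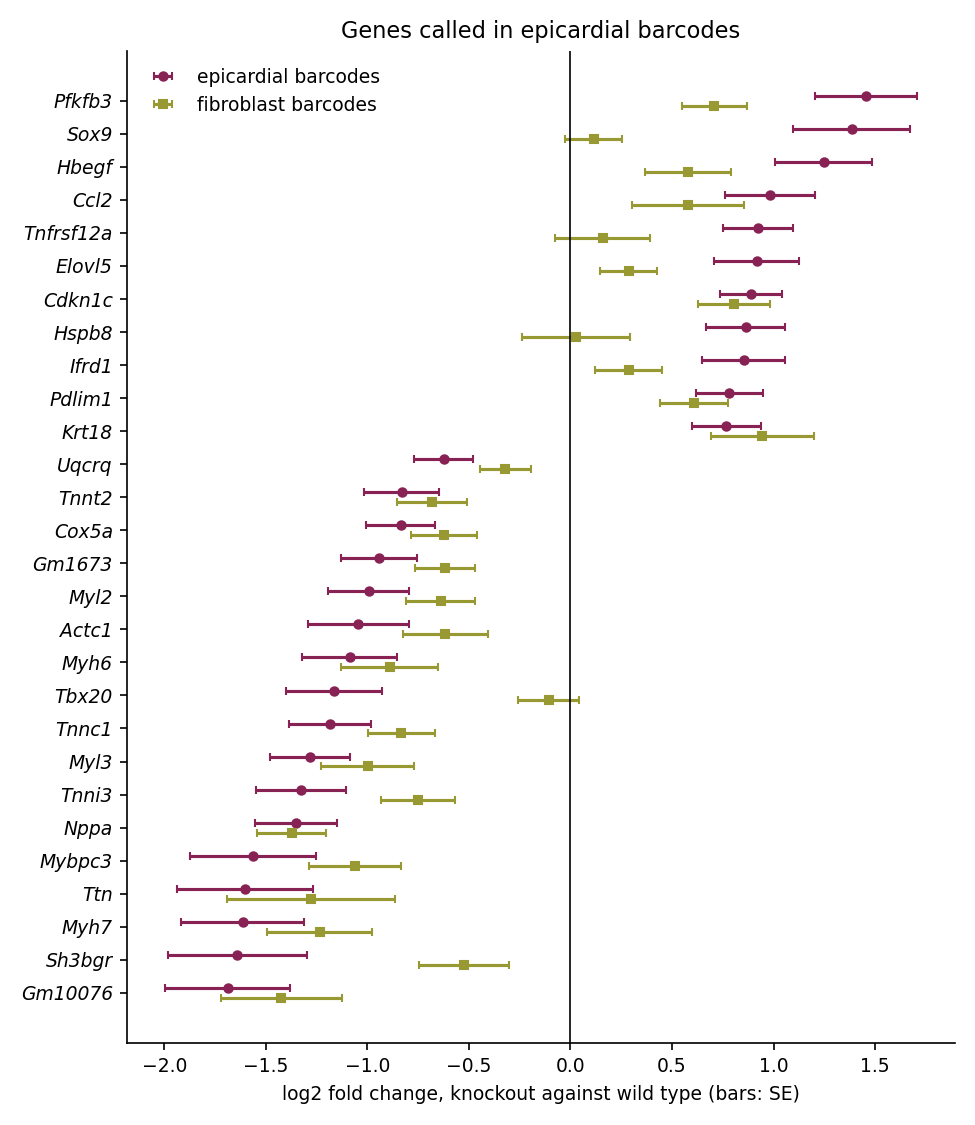
log2 fold change (KO against WT, with SE) of the 28 genes called in epicardial barcodes, in epicardial (circles) and fibroblast (squares) barcodes. All 28 estimates have the same sign in both classes, and those of Sox9, Tnfrsf12a, Hspb8 and Tbx20 lie near 0 in fibroblasts (0.12, 0.16, 0.03 and -0.11).

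Fibroblast barcodes of the same libraries gave 14 called genes of 9500 (0.147%). All 11 higher and all 17 lower genes had fibroblast estimates of the same sign, and 2 of the 28, Nppa and Tnnc1, were called there. The rules of both classes limit Tnnc1, Actc1, Tnnt2 and Ttn, so the values of these genes are a description in fibroblasts too. A test of the difference between classes, with each library as a block, called 2 of 9827 genes (0.0204%) and none of the 28. Tnni1 was 1 of the 2, but the rules of both classes limit it, so its values are a description: it was at 578 ± 153 CPM in WT and 449 ± 66.7 in KO members, and at 256 ± 57.6 and 131 ± 21.5 in fibroblasts (difference in log2 change 0.67). The other was Dpt (dermatopontin), with 3, 17, 2, 1, 15, 12 and 0 UMIs in WT members (replicates 1 to 7) and 0, 1, 1, 0, 2, 6, 4 and 1 in KO members (replicates 1 to 8). Its fibroblast log2 change was 0.10, and the difference was -2.57 ± 0.51 (edgeR adjusted p = 0.0341). Most WT Dpt UMIs were in replicates 2, 5 and 6. Sox9 (1.32) and Tnfrsf12a (0.82) missed the threshold at an edgeR adjusted p of 0.0535 each, and without barcodes holding an Epcam or Cdh1 UMI 3 genes were called, Sox9 among them. Leaving out single libraries gave 0 to 4 called genes.

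Between the alleles, 155 of 5653 genes (2.74%) passed edgeR's test, 50 higher and 105 lower in tm4b than in tm4a members. Allele and litter cannot be told apart in these calls. Among the lower genes, Upk1b and Myl7 were used by the rule, so their values are a description only. Genes whose tm4a and tm4b libraries did not overlap numbered 642 of 5653 over all genes and 127 among the 155. Without the barcodes holding an Epcam or Cdh1 UMI, which were nearly all in KO replicates 6 and 8, 109 were called, 94 of them among the 155, and 152 of the 155 that could be tested there kept their sign. Leaving out KO replicate 3 lowered the count to 47, replicate 8 to 48 and replicate 6 to 55. Median UMIs per member averaged 1878 in tm4a and 2034 in tm4b libraries.

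Of 13 tested genes of the mesothelial list, 2 fell in tm4b members, Msln and Efemp1, and 0 rose (median -0.18). Of the 25 leading genes 6 were called, all lower, and of these Msln and Efemp1 alone kept their call without the Epcam or Cdh1 barcodes. Msln was at 500, 655, 925 and 1099 CPM in the 4 tm4a libraries and at 363, 446, 413 and 249 in the 4 tm4b libraries. The groups did not overlap, and WT libraries spanned 421 to 768. Its log2 fold change was -1.17 ± 0.20 (edgeR adjusted p = 0.00302), and -0.99 without the Epcam or Cdh1 barcodes (edgeR adjusted p = 0.0146). Efemp1 was at 282, 321, 332 and 329 CPM in tm4a and at 182, 189, 228 and 115 in tm4b libraries, without overlap (log2 -0.90 ± 0.19, edgeR adjusted p = 0.0136; -0.74 without those barcodes, adjusted p = 0.0287). As a description, since the rule used both, Upk1b was at 449, 526, 515 and 425 CPM in tm4a and at 400, 349, 326 and 241 in tm4b (log2 -0.63), and Upk3b had a log2 change of -0.43. S100a6, Smim1, Gm10664 and Cst9 were the other leading genes called, each lower, and each missed the threshold without those barcodes. Lrrn4 had a log2 change of -0.14 (edgeR adjusted p = 0.654).

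Of 15 tested epicardial regulators, 2 rose and 0 fell (median 0.18). Tbx18 was at 138, 135, 198 and 201 CPM in tm4a and at 429, 301, 284 and 201 in tm4b libraries (log2 0.80 ± 0.22, edgeR adjusted p = 0.0486). Meis1, a homeobox partner of Hox and Pbx factors, was at 72.4, 67.4, 91.5 and 72.2 CPM in tm4a and at 192, 130, 138 and 123 in tm4b (log2 0.86 ± 0.23, edgeR adjusted p = 0.0389). Neither gene's groups overlapped, but the highest tm4a and lowest tm4b values of Tbx18 round to the same 201 CPM. Both changes were larger without the Epcam or Cdh1 barcodes, 0.96 and 0.98, with edgeR adjusted p of 0.016 and 0.0181. Tbx18 passed in 2 and Meis1 in 0 of the 8 fits that left out 1 library.

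**Figure D5:**
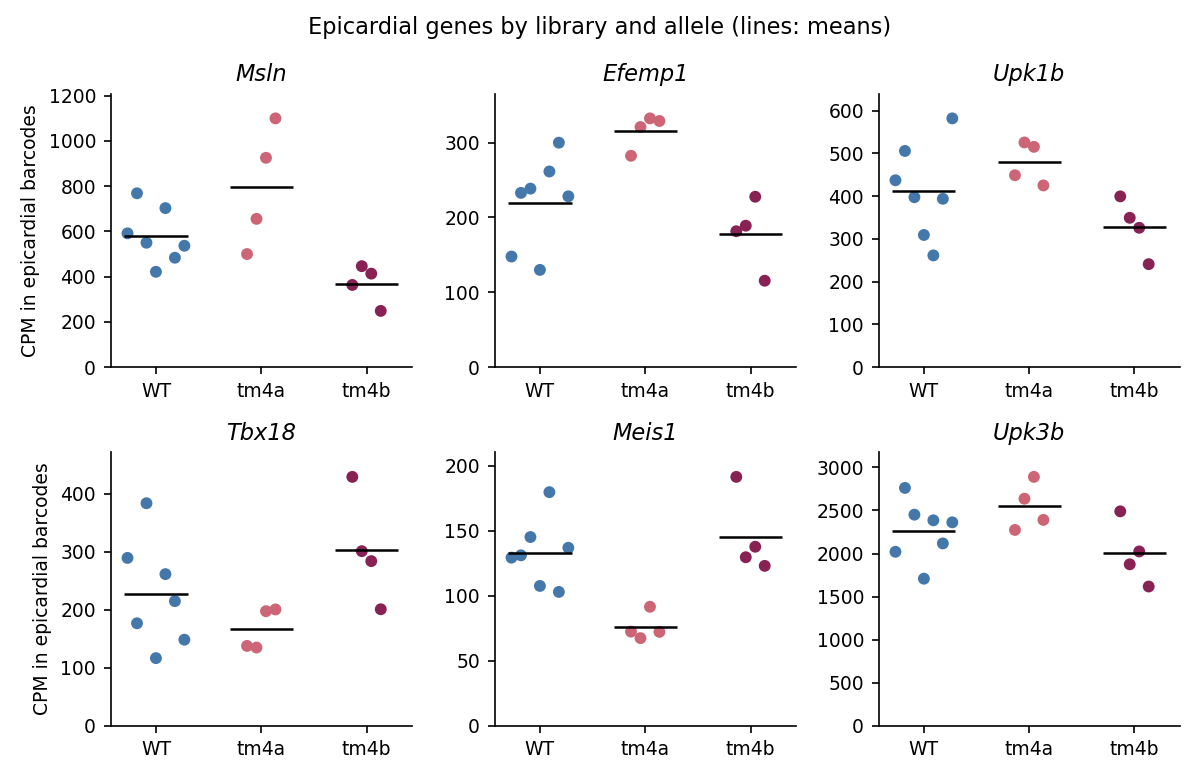
CPM in epicardial sums of each library for 6 epicardial genes, in WT (n = 7), tm4a (n = 4) and tm4b (n = 4); lines mark means and each axis starts at 0. Msln, Efemp1 and Upk1b lie lower in tm4b than in every tm4a library, Tbx18 and Meis1 higher, with the closest Tbx18 values of the 2 alleles both near 201 CPM, and Upk3b overlaps; all WT libraries have more Meis1 than any tm4a library.

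Outside these lists, Cxcl1, a neutrophil chemokine, was at 333, 280, 352 and 321 CPM in tm4a and at 39.6, 94.5, 64.7 and 173 in tm4b libraries (log2 -1.81 ± 0.27, edgeR adjusted p = 0.000853). The metallothionein Mt1 was at 268, 221, 198 and 168 CPM in tm4a and at 66.0, 87.9, 78.7 and 108 in tm4b (log2 -1.38 ± 0.20, edgeR adjusted p = 0.000853), and Mt2 had a log2 change of -1.58. Both kept their direction and Mt1 and Cxcl1 their call without the Epcam or Cdh1 barcodes. Of 74 cytosolic ribosomal protein genes, 26 fell and 0 rose (median -0.40, against 0.00 over all genes), and 25 of the 26 were called without those barcodes too. Rps18 went from 1521 ± 98.1 to 833 ± 89.5 CPM (log2 -0.94). Hsp90aa1 and Hspa8 were the called members of 11 heat shock genes (log2 -0.64 and -0.57). Among higher genes were Hdac2, a histone deacetylase (log2 1.12), Dnajc2, a ribosome-associated chaperone (1.21), and Errfi1, an inhibitor of EGF receptor signalling (1.84). Fam3c (1.85) fell to 0.83 and lost its call without the Epcam or Cdh1 barcodes. Of the 28 genes called between KO and WT, 0 were called between alleles, where Mybpc3 and Sh3bgr were not tested.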

How the data were processed

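Drop-seq of 15 whole-heart libraries was deposited as 1 table of raw UMI counts per gene and barcode (16809 genes). The authors' processing used bcl2fastq 2.17 and Seurat 2.1 with the build mm10, per the submitters' processing notes; the aligner is not named there. The fewest genes in any deposited barcode were 251. Library totals ranged from 5477109 to 11340443 UMIs. Members and gene lists were chosen with earlier results of these data known. UMIs of gated barcodes were summed per library and tested with edgeR 4.0.16 (TMM, filterByExpr, quasi-likelihood, Benjamini-Hochberg, threshold 0.05) in R 4.3.3, with DESeq2 1.42.0 as an alternative; printed CPM are over all UMIs of the sum. Shares were compared by exact permutation over libraries (python 3.11.15). Named genes were up to 10 called per direction by fold change, the 25 highest and 10 lowest against fibroblasts, and listed genes. Called genes outside that rule (Krt18, S100a6, Smim1 and others) were named after their values were seen. No doublet caller was run. edgeR was tested on simulated data. A few listed genes are not reported here. The description of WT replicate 4 numbers it 3; its title was used. Same-numbered libraries did not deviate together.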

Additional observations from a re-analysis of the deposited data

Results flagged for a closer look

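Of 50 groups of libraries checked for a library far from the others, 6 held one by Dixon's criterion, which chance meets in about 1 of 20. KO replicate 1 had a log2 ratio of epicardial to fibroblast barcodes of -2.64, against a group median of -1.88. WT replicate 3 had 2275 CPM of Cdkn1c (median 1335). KO replicate 1 had 72.4 CPM of Sh3bgr (median 22.8) and 196 CPM of Nppa (median 89.6). KO replicate 4 had 313 CPM of Ttn (median 66.7) and 72.2 CPM of Mybpc3 (median 20.7).

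The genotype effect differed between epicardial and fibroblast barcodes, by edgeR's test of the difference, for Dpt (-2.57 on the log2 scale). Tnni1 (0.67) met the same criterion, but the rules that chose both classes limit this gene, so its value is a description.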

How the results depend on the processing

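The KO minus WT difference in epicardial share was 1.02 points. It was 0.894 without barcodes holding an Epcam or Cdh1 UMI and 0.854 for members with an Upk3b UMI. After thinning it was 1.24, and at a minimum of 500 genes 1.14. On the shared flow cell it was 2.34 (1 WT library, no test), and with single libraries left out 0.803 to 1.24. The fibroblast difference was -0.00311 per litter and reached -0.243 without KO replicate 8 and -0.0801 without WT replicate 6. The log2 ratio difference was 0.555 after thinning and 0.395 to 0.728 with single libraries left out; the mitotic difference was -12.4 (without WT replicate 7) to -5.42 (without WT replicate 3). Genes called between KO and WT numbered 51 with DESeq2, 100 with no filter, 8 with flow cell as a term, 2 per litter and 18 to 48 with single libraries left out. Between alleles they numbered 286 with no filter and 47 to 142 with single libraries left out. Between classes they numbered 29 with no filter, 6 at 3 rule-gene UMIs, 5 among members with an Upk3b UMI, 3 without Epcam or Cdh1 barcodes, 0 with DESeq2 (367 at an unadjusted p under 0.05) and 0 to 4 with single libraries left out. Genes higher than fibroblasts in every library numbered 201 after thinning. With flow cell as a term Mybpc3 reversed to 0.58. The cause of these changes was not tested. Same-numbered libraries correlated at -0.273 to 0.0184 and 0 of 7 correlated best with their own number, so the numbers do not pair the libraries; with the replicate block the share difference was 0.822 (exact permutation p = 0.0781) and 10 genes were called. The 25 barcodes of WT replicate 5 limit its values most.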

Other observations

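Outside the members, 78 kept barcodes held a UMI of Epcam or Cdh1, and their pooled Msln was at 0 CPM. The 63 members with Krt19 as their only rule gene had 749 CPM of Epcam and 20.1 CPM of Msln.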
